A study of Mus musculus with 63 samples.

Results

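The genes described are 31 mouse genes for enzymes and complex subunits of histone H3 lysine 4 (H3K4) methylation, the histone deacetylase family and a corepressor. They were taken by name from 47517 gene symbols counted in 22 RNA-seq libraries: 6 H3K4 methyltransferases, 6 subunits of their complexes, 6 lysine demethylases, 4 class I, 4 class IIa and 3 class IIb or IV histone deacetylases, the deacetylase Sirt1 and the corepressor Ncor1. All 31 passed the filter on low counts in each model, so none was left untested. Levels are CPM, a gene's reads scaled to the library's total of gene counts. Fold changes and tests use TMM normalization factors as well, so a ratio of CPM can differ from the fold change beside it, and levels are not compared between genes. A gene was called where its p, adjusted over all genes tested, was under 0.05.

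The libraries came from cells of strain C57BL/6 in 10 groups. The untransduced groups were embryonic stem (ES) cells in 2i and extended pluripotent stem (EPS) cells in LCDM, with 3 libraries each, grown on inactivated fibroblast feeders or on Matrigel, without the labels saying which. EPS cells with a control hairpin (shCtrl) or a hairpin against Yy1 (shYy1) and ES cells with a control construct (oeCtrl) or a Yy1 construct (oeYy1) had 2 libraries each. The same 4 lines were sampled again, with 2 libraries each, after 6 days in the medium labelled F4H. The day 6 controls carry the names of their hairpin or construct only in their titles, which were followed. Yy1 is a zinc finger transcription factor that binds many promoters. The labels do not say whether replicates were separate cultures or whether a hairpin line and its control came from the same parent culture, so the p-values measure the spread between these libraries only.

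Methylated H3K4 marks active promoters (trimethylation, placed mainly by the Setd1a, Setd1b and Kmt2b complexes) and enhancers (monomethylation, placed mainly by Kmt2c and Kmt2d). Each methyltransferase works with a shared core of Wdr5, Rbbp5, Ash2l and Dpy30. Demethylases of the Kdm1 and Kdm5 families remove the mark. The class I deacetylases Hdac1, Hdac2 and Hdac3 act in nuclear corepressor complexes. Class IIa enzymes shuttle between nucleus and cytoplasm, and Hdac6 deacetylates tubulin in the cytoplasm.

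The promoters that the results return to are shown here as RefSeq lists them on build GRCm38.p6. RefSeq promoter entries were found for 23 of the 31 genes, 36 promoters in all. The other members (Kmt2b, Setd1b, Cxxc1, Ash2l, Kdm5a, Hdac1, Hdac3 and Hdac10) had no entry among the promoters used, so the search below does not cover them. The letters AANATGGC, the core of the motif known for Yy1, were searched for on both strands of the 300 bases from 250 before to 50 after each start. They occur in 6.052% of all 32851 promoters and in 1 promoter each of Kmt2a, Ncor1 and Kdm5c, always on the gene's own strand and after the start. Kmt2a rose with the Yy1 construct and Kdm5c with the hairpin, and Ncor1 was called with neither in undifferentiated cells, so the 3 are shown together, with the match in capitals. Counting the start of the promoter entry as base 1, the matches begin at base 13 (Kmt2a), 26 (Ncor1) and 28 (Kdm5c). These 3 starts lie inside the RefSeq gene bounds, so the matches lie further in when counted from those bounds. The windows lie at chr9:44881259-44881288 (minus strand), chr11:62457289-62457318 (minus strand) and chrX:152233243-152233272 (plus strand).
Kmt2a: cttacggggcgAACATGGCgcacagctgtc
Ncor1: ggggttgaggcAAGATGGCggctaaggtgg
Kdm5c: gctgacaaaccAAGATGGCggtggcagcgg
A match is a description of the letters and not evidence of binding. The 250 bases before the start of the promoter entry are printed for Kdm5c, Hdac6 and Sirt1, whose changes with the hairpin held under every alternative processing tried. They lie at chrX:152232977-152233226 (plus strand), chrX:7947890-7948139 (minus strand) and chr10:63339036-63339285 (minus strand). For Kdm5c and Hdac6 the entry starts inside the RefSeq gene bounds, at chrX:152233198 and chrX:7948047, so the last bases printed lie within the gene. The bases printed for Sirt1 lie wholly outside its bounds.
Kdm5c: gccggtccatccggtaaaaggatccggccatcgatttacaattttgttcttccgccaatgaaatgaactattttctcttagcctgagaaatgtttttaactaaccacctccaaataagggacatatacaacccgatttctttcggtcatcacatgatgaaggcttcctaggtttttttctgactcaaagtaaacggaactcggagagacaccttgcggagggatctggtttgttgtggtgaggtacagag
Hdac6: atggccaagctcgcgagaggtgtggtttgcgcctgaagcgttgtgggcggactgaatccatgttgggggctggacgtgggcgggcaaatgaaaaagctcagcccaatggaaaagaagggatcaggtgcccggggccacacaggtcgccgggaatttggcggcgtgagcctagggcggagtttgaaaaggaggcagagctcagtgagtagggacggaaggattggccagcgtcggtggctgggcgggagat
Sirt1: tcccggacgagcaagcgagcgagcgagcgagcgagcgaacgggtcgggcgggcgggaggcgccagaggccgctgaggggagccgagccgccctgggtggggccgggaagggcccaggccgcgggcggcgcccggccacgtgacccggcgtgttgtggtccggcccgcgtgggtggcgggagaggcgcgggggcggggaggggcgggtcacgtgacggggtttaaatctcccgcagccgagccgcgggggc
The whole 300-base promoter held 13 CpG sites for Kdm5c, 20 for Hdac6 and 47 for Sirt1. The median was 24 over the members' promoters and 7 over all promoters.

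Gene counts per library ran from 13672061 to 20782348. At these depths a gene with 0 counts could reach 0.144 to 0.219 CPM, taking 3 counts as the floor. Yy1 itself was at 134 CPM in both shCtrl libraries and 70.5 in both shYy1 libraries (log2 fold change -0.99 ± 0.11 SE, adjusted p = 4.4e-06), and rose from 122 ± 2.2 to 937 ± 5.3 CPM (SD, n = 2 each) with the construct. On day 6 it was 129 and 123 CPM in the shCtrl libraries and 114 and 110 CPM in the shYy1 libraries, a difference that was not called, while the construct line stayed higher at 331 and 324 CPM against 120 and 126 CPM. Fibroblast marker genes summed to 2668 to 4885 CPM in ES libraries, 349 to 1068 CPM in EPS libraries and at most 85.4 CPM in the undifferentiated hairpin and construct libraries. The third replicate was highest of its group for that sum in both ES and EPS cells. Y-linked genes summed to 3.06 and 3.40 CPM in shCtrl but 155 and 158 CPM in shYy1, and to 111 and 131 CPM in oeCtrl but 26.9 and 27.7 CPM in oeYy1. Each line therefore differed from its control in Y-linked RNA as well as in Yy1, and these differences cannot be told apart. Fewer cells of a type and less RNA per cell cannot be told apart in such bulk libraries.

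**Figure D1:**
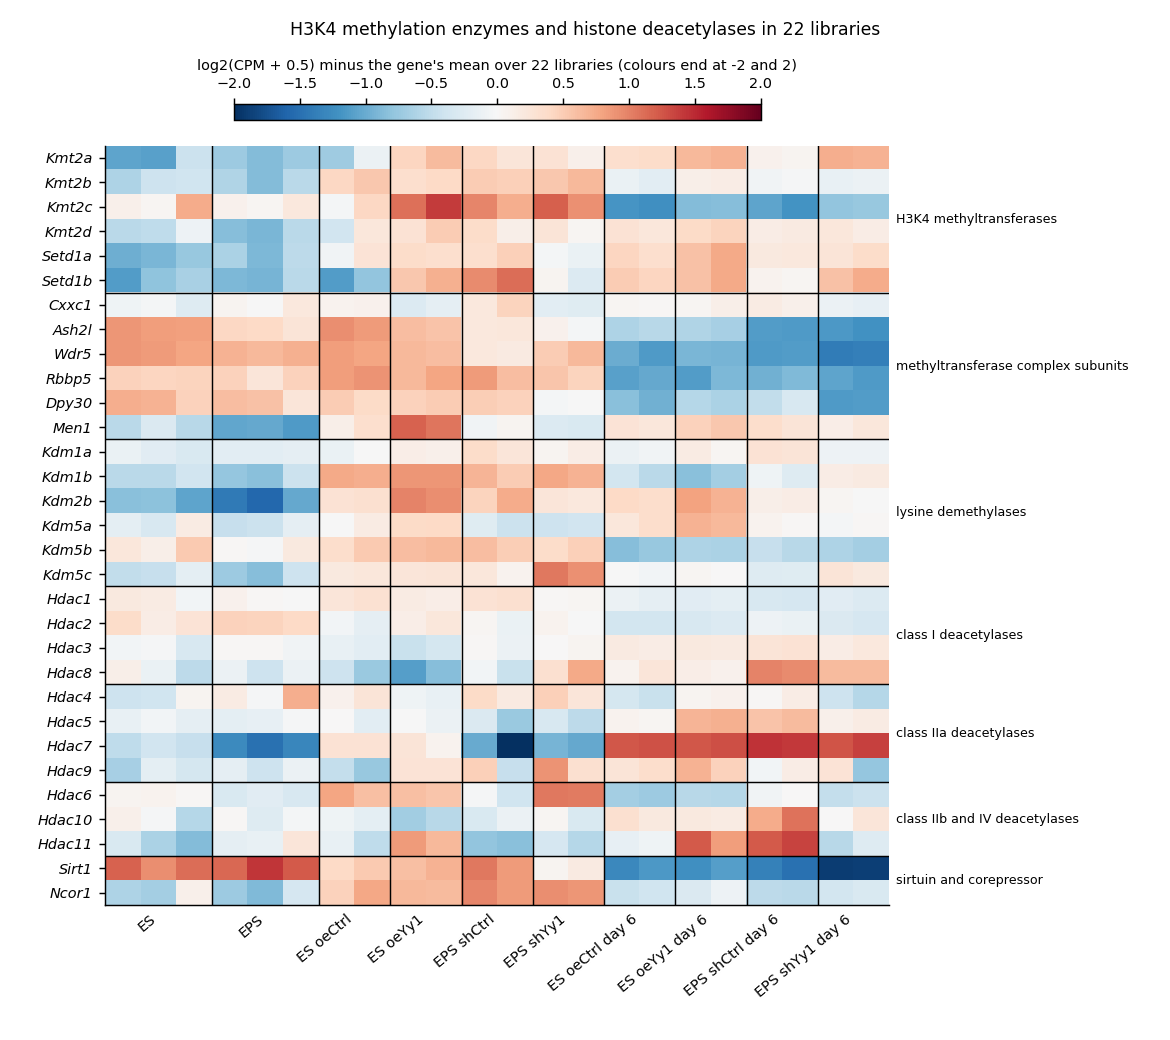
Heat map of the 31 genes (rows, grouped by role) in 22 libraries (columns, grouped by line and stage). Colour is log2(CPM + 0.5) minus the gene's mean over all libraries, red above and blue below it. Ash2l, Wdr5, Rbbp5, Dpy30 and Sirt1 are blue in all 8 day 6 libraries, and Hdac7 is red in all 8.

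Few of these genes were called between untransduced EPS and ES cells. Of the 31, Hdac4 and Hdac11 were higher in EPS cells and Ash2l, Men1, Kdm2b and Hdac6 were lower, while 30.6% of all genes tested were called, 13.8% higher and 16.9% lower. With RLE size factors the split was 5 higher and 3 lower, beside 30.8% of all genes called. The median log2 fold change was -0.01 over the members and -0.0046 over all genes. None of the 6 methyltransferases and none of the 4 class I deacetylases was called.

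Ash2l, the core subunit that stimulates methyltransferase activity, was at 636, 616 and 609 CPM in ES cells and 458, 457 and 412 CPM in EPS cells. Men1 (menin), which tethers Kmt2a and Kmt2b to chromatin, was at 51.4, 61.0 and 50.4 CPM in ES cells and 36.0, 36.3 and 33.6 CPM in EPS cells. In both genes every EPS library lay below every ES library, with log2 fold changes of -0.42 ± 0.10 (Ash2l, adjusted p = 0.0029) and -0.55 ± 0.11 (Men1, adjusted p = 0.0013). Hdac4, a class IIa deacetylase, was at 29.8, 30.1 and 41.5 CPM in ES cells and 44.6, 39.2 and 66.7 CPM in EPS cells, with ES replicate 3 above EPS replicate 2 (log2 fold change 0.62 ± 0.15, adjusted p = 0.0049). These 3 calls held under every alternative, whereas those of Kdm2b, Hdac6 and Hdac11 were not. Kdm2b (adjusted p = 0.031) was not called when replicate 1 or replicate 2 of either group was left out (0.088 to 0.15). Hdac6 (0.044) was lost when replicate 1 of either group, the second ES library or the third EPS library was left out (0.086 to 0.12), and Hdac11 (0.023) when the second ES library or replicate 3 of either group was (0.063 to 0.090). Beside these calls the fibroblast marker sum was lower in every EPS library than in every ES library, with 12 of 16 markers called lower. Its part in the difference was not tested.

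Replicates of the ES and oeCtrl groups were spread widely for Kmt2a, Kmt2c, Kmt2d and Ncor1. In ES cells Kmt2a was at 61.9, 60.4 and 95.6 CPM, Kmt2c at 61.0, 58.4 and 96.0 CPM, Kmt2d at 99.8, 102 and 135 CPM and Ncor1 at 164, 158 and 269 CPM. In all 4 genes the third ES replicate was the highest. In oeCtrl cells the second replicate was higher than the first for the same 4 genes, for example 119 against 78.6 CPM for Kmt2a. Differences of these genes between groups are read against that spread.

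The hairpin and construct lines also stood apart from the untransduced cells as a set. For 7 members (Kmt2b, Setd1a, Kdm1a, Kdm1b, Kdm2b, Kdm5c and Ncor1) all 8 undifferentiated hairpin or construct libraries lay above all 6 untransduced libraries, that is 22.6% of the members against 11.4% of all genes tested. For no member did all 8 lie below, beside 10.4% of all genes tested. Kdm2b, which binds unmethylated CpG islands, was at most 47.6 CPM in untransduced cells and ran from 97.7 to 167 CPM in the other 8 libraries. Ncor1 ran from 136 to 269 CPM in untransduced cells and from 347 to 496 CPM in the others. Beside this, fibroblast markers summed to at least 349 CPM in each untransduced library and at most 85.4 CPM in the other 8 libraries. Their part in the difference was not tested. The labels do not say whether the sets were prepared together, and no test was made between them.

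Between the control lines of the hairpin and construct experiments 35.5% of the members were called, a smaller share than the 40.4% of all genes. In shCtrl EPS cells against oeCtrl ES cells 5 members were higher (Kmt2a, Kmt2c, Setd1b, Kdm1a and Sirt1) and 6 lower (Ash2l, Wdr5, Kdm5a, Hdac5, Hdac7 and Hdac6), beside 40.4% of all genes called, 19.7% higher and 20.7% lower. Setd1b, a catalytic subunit of the main H3K4 trimethylation complexes (chr5:123142040-123168630), was at 89.8 and 101 CPM in shCtrl and 21.1 and 26.5 CPM in oeCtrl. The 3 ES libraries (21.1, 26.2 and 29.3 CPM) and the 3 EPS libraries (24.5, 24.1 and 31.8 CPM) lay, like oeCtrl, below both shCtrl libraries. The log2 fold change of shCtrl against oeCtrl was 1.98 ± 0.18 (adjusted p = 1.9e-07). Beside these differences 9 of 11 tested endoderm markers were higher and 1 lower in shCtrl (median log2 fold change 2.37), with sums of 359 to 443 CPM in shCtrl and 272 to 278 CPM in oeCtrl, and their part was not tested. The calls of Setd1b, Ash2l, Wdr5 and Hdac6 held under every alternative. Without oeCtrl replicate 1, whose Kmt2a and Kmt2c levels were the lower of its pair, 6 members were called and Kmt2a, Kmt2c, Kdm1a, Hdac5 and Sirt1 were not (adjusted p from 0.086 to 0.21). Without shCtrl replicate 1 Kmt2a (0.050) and Kmt2c (0.099) missed the threshold, without shCtrl replicate 2 Kdm5a (0.073) and Hdac5 (0.19), and without oeCtrl replicate 2 Kdm5a (0.13). Hdac7, a class IIa deacetylase, was at 20.2 and 4.47 CPM in the 2 shCtrl libraries and 50.1 and 49.9 CPM in oeCtrl. Its log2 fold change was -2.07 ± 0.40 (adjusted p = 0.0011, and 0.070 where only the 4 libraries compared were fitted).

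With Yy1 depletion in EPS cells 7 members were lower and 4 higher, the X-linked members among the latter. Setd1a, Setd1b, Cxxc1 (the CpG-binding subunit of the Setd1 complexes), Dpy30, Kdm2b, Hdac1 and Sirt1 fell, and Wdr5, Kdm5c, Hdac8 and Hdac6 rose. This is 11 of 31 members (35.5%) beside 28.5% of all genes, 15.1% higher and 13.3% lower. The median log2 fold change was -0.07 over the members and -0.01 over all genes. Of the 6 methyltransferases 2 were called (33.3%), and the Kmt2 genes did not pass the test, with log2 fold changes from -0.20 (Kmt2a) to 0.14 (Kmt2c). Of 11 tested endoderm markers 9 were lower in shYy1 and none higher (median log2 fold change -1.21), and their sum was 236 ± 22.4 CPM in shYy1 against 401 ± 59.2 CPM in shCtrl (SD, n = 2 each). Their part in the members' differences was not tested.

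Setd1b was at 89.8 and 101 CPM in shCtrl and 48.3 and 38.4 CPM in shYy1. Both depleted libraries lay below both controls but above all 3 untransduced EPS libraries. The log2 fold change was -1.20 ± 0.17 (adjusted p = 6.4e-05). Its paralogue Setd1a was at 66.3 and 73.3 CPM in shCtrl and 51.2 and 48.0 CPM in shYy1 (log2 fold change -0.56 ± 0.14, adjusted p = 0.0078), a call lost without shCtrl replicate 2 (adjusted p = 0.090) or without shYy1 replicate 2 (0.073). Cxxc1 was at 71.8 and 85.1 CPM in shCtrl and 53.7 and 52.3 CPM in shYy1, and its call held throughout (log2 fold change -0.64 ± 0.13, adjusted p = 0.0016). The remaining fall among subunits was that of Dpy30, from 122 and 119 CPM to 83.7 and 85.4 CPM, while Wdr5, the subunit that binds the histone tail, was at 338 and 330 CPM in shCtrl and 416 and 456 CPM in shYy1. The groups did not overlap in either gene, yet both calls were lost in leave-one-out fits. Dpy30 missed the threshold without shCtrl replicate 2 or without either shYy1 replicate (adjusted p from 0.052 to 0.058), and Wdr5 without any 1 of the 4 libraries (0.063 to 0.22).

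Sirt1, an NAD-dependent deacetylase of histones and p53 (chr10:63319005-63339035), was at 175 and 152 CPM in shCtrl and 87.0 and 95.1 CPM in shYy1. The untransduced EPS libraries, at 187, 226 and 198 CPM, lay above both groups. The log2 fold change of -0.91 ± 0.13 (adjusted p = 6.0e-05) held under every alternative. Hdac1, a catalytic subunit of the Sin3, NuRD and CoREST complexes, fell from 426 and 432 CPM to 354 and 356 CPM, but its adjusted p of 0.045 passed 0.05 in most alternatives, among them leaving out shCtrl replicate 2 (0.21) or either shYy1 replicate (0.16 each). Kdm2b was at 114 and 141 CPM in shCtrl and 99.4 and 97.7 CPM in shYy1, with an adjusted p of 0.032 that became 0.36 without shCtrl replicate 2, 0.12 without shYy1 replicate 1 and 0.14 without shYy1 replicate 2.

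The 3 X-linked members all rose with depletion. Kdm5c, an H3K4 demethylase that escapes X inactivation (chrX:152233198-152279102), was at 225 and 202 CPM in shCtrl and 400 and 363 CPM in shYy1. Hdac6 (chrX:7930116-7948047) was at 116 and 89.6 CPM in shCtrl and 245 and 242 CPM in shYy1. Hdac8, a class I deacetylase known for acting on cohesin (chrX:102284638-102505381), was at 6.74 and 5.00 CPM in shCtrl and 8.85 and 12.2 CPM in shYy1. In each gene both depleted libraries lay above both controls, and the shYy1 levels of Kdm5c and Hdac6 were above those of every other library of the series. The log2 fold changes were 0.77 ± 0.12 for Kdm5c (adjusted p = 1.4e-04), 1.19 ± 0.12 for Hdac6 (adjusted p = 1.8e-06) and 0.79 ± 0.27 for Hdac8 (adjusted p = 0.036, but 0.21 without shCtrl replicate 2 and 0.30 without shYy1 replicate 2).

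X-linked genes as a whole were higher in the same libraries. Over 578 X-linked genes the median log2 fold change was 0.83, with 338 higher and 13 lower, against -0.03 over 14359 autosomal genes. Kdm5c lay above 47.4%, Hdac8 above 47.9% and Hdac6 above 69.4% of X-linked genes. X-linked genes took 2.75 and 2.80% of gene counts in shCtrl and 4.67 and 4.74% in shYy1. Xist, the RNA that coats an inactive X, was at 25.9 and 4.59 CPM in shCtrl, with both shYy1 libraries between these levels, and was not called. A fit without genes of the sex chromosomes, which leaves out these 3 members, called 7 members, 1 higher and 6 lower. It called 26.8% of all genes tested. How far the depletion and the difference in sex-chromosome RNA each account for the rise of Kdm5c, Hdac6 and Hdac8 cannot be told apart.

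**Figure D2:**
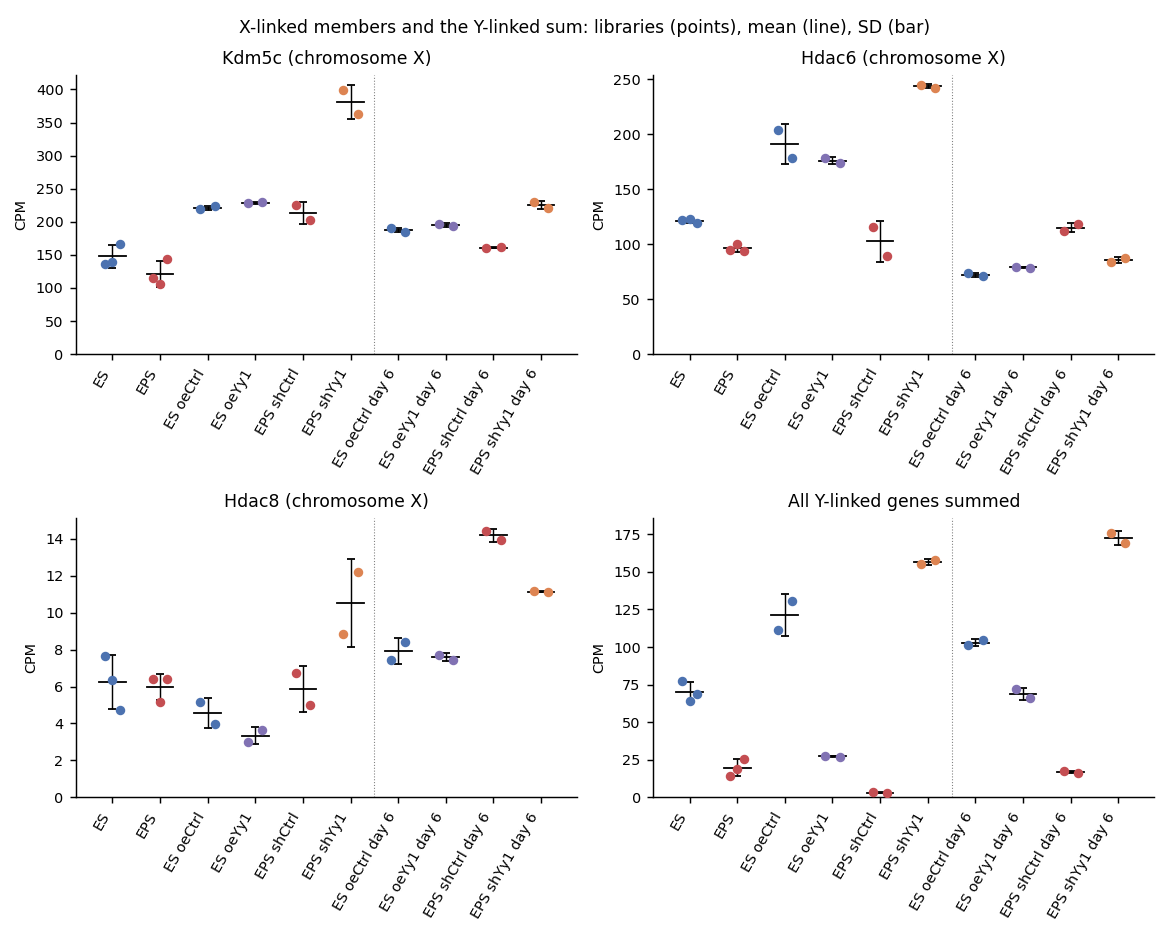
CPM of Kdm5c, Hdac6 and Hdac8, and the summed CPM of all Y-linked genes, in 10 groups. Points are libraries, lines are group means and bars are SD (n = 3 for ES and EPS, otherwise 2), with the dotted line parting undifferentiated from day 6 libraries. The shYy1 libraries, at 363 and 400 CPM of Kdm5c and 242 and 245 CPM of Hdac6, also hold 155 and 158 CPM of Y-linked RNA against 3.06 and 3.40 CPM in shCtrl.

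With Yy1 overexpression in ES cells 6 members were higher and none was lower. Kmt2a, Kmt2c, Setd1b, Men1, Kdm2b and Hdac11 rose, beside 32% of all genes called, 14.8% higher and 17.1% lower. With library totals in place of normalization factors 7 were higher and 1 lower, beside 31.1% of all genes. With only the 4 libraries compared 11 were higher and 6 lower, beside 57.4% of all genes. The median log2 fold change over the members was 0.04. Of the 6 methyltransferases 3 were called and their median was 0.67, beside 0.01 over all genes.

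Setd1b was at 21.1 and 26.5 CPM in oeCtrl and 67.5 and 75.8 CPM in oeYy1 (log2 fold change 1.58 ± 0.17, adjusted p = 4.2e-06). Kmt2c, an enhancer methyltransferase, was at 55.3 and 75.8 CPM in oeCtrl and 122 and 151 CPM in oeYy1 (log2 fold change 1.05 ± 0.20, adjusted p = 7.6e-04). Kmt2a, the trithorax methyltransferase of Hox gene promoters, was at 78.6 and 119 CPM in oeCtrl and 174 and 200 CPM in oeYy1 (log2 fold change 0.91 ± 0.20, adjusted p = 0.0022). The groups were apart in all 3 genes, and the oeYy1 levels of Kmt2a and Kmt2c also exceeded those of all 6 untransduced libraries. The call of Kmt2a was lost where only the 4 libraries compared were fitted (adjusted p = 0.092). Men1 was at 81.2 and 94.2 CPM in oeCtrl and 169 and 156 CPM in oeYy1, the 2 highest levels of the series (log2 fold change 0.88 ± 0.14, adjusted p = 1.1e-04). Kdm2b was at 103 and 105 CPM in oeCtrl and 167 and 161 CPM in oeYy1 (log2 fold change 0.66 ± 0.15, adjusted p = 0.0024). Hdac11, the class IV deacetylase, was low, at 5.30 and 4.05 CPM in oeCtrl and 11.1 and 9.58 CPM in oeYy1 (log2 fold change 1.14 ± 0.26, adjusted p = 0.0025). All of these calls except that of Kmt2a held under every alternative tried.

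Setd1b and Kdm2b were the only members called lower with the hairpin and higher with the construct, 6.45% of the members beside 4.36% of all genes. The hairpin call of Kdm2b was lost in the leave-one-out fits given above. No member was called the opposite way, beside 5.87% of all genes. The 2 genes lie 152769 bases apart on chromosome 5. Of 18 genes tested within 500000 bases of Setd1b, a window chosen after seeing these values, 3 had this pattern: these 2 and the low gene Rhof. P2rx4 in that window was called the opposite way. Whether the neighbours move together was not tested. The X-linked members were not called with the construct: the log2 fold changes were 0.04 for Kdm5c, -0.12 for Hdac6 and -0.46 for Hdac8, and the X-linked median was 0.01. Hdac9, a class IIa deacetylase, stayed between 0.196 and 1.68 CPM in the undifferentiated hairpin and construct libraries, close to the floor, and no fold is given for it there.

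**Figure D3:**
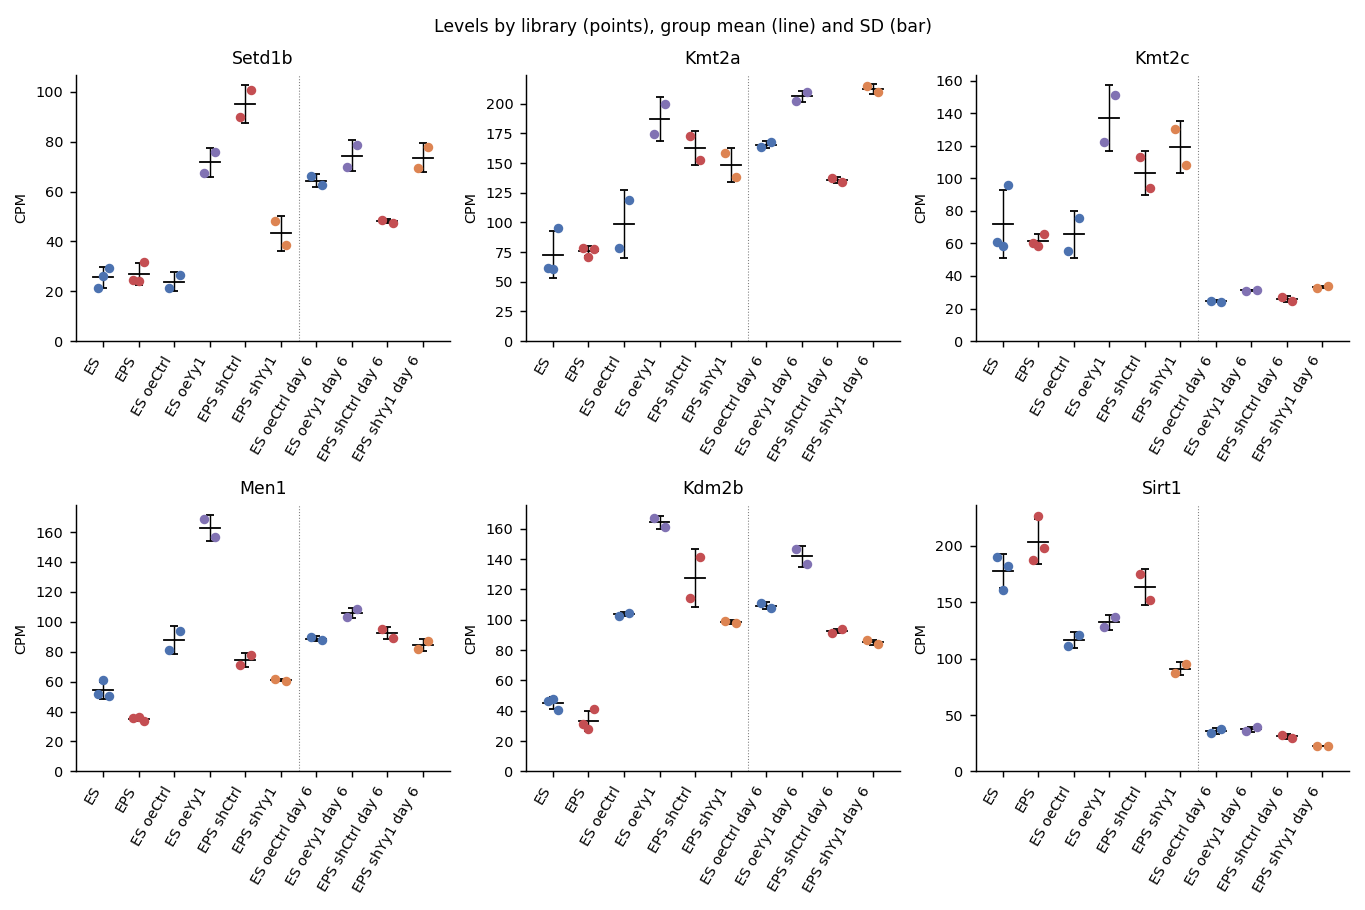
CPM of Setd1b, Kmt2a, Kmt2c, Men1, Kdm2b and Sirt1 in 10 groups. Points are libraries, lines are group means and bars are SD (n = 3 for ES and EPS, otherwise 2), with the dotted line parting undifferentiated from day 6 libraries. Setd1b is at 21.1 to 31.8 CPM in ES, EPS and oeCtrl, 67.5 and 75.8 CPM in oeYy1 and 89.8 and 101 CPM in shCtrl.

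Partner genes of the same complexes moved in both directions, and the counts below stand beside 28.5% of all genes called with depletion (15.1% higher, 13.3% lower) and 32% with overexpression. The shares called with depletion were 31.2% of H3K4 complex partners, 50% of NuRD, 23.5% of Sin3 and 20% of acetyltransferase genes. They were 25% of the partners of Ncor1 and 10% of those of Kdm1a. With depletion, 3 of 16 tested H3K4 complex partners were called higher and 2 lower. The X-linked partners Ogt (an O-GlcNAc transferase) and Kdm6a (an H3K27 demethylase) rose by 0.76 ± 0.14 and 0.65 ± 0.14 on the log2 scale. Psip1, a chromatin reader that joins menin, fell by 0.44 ± 0.11. In the NuRD deacetylase and remodelling complex 1 of 10 genes was called higher and 4 lower: the remodelling ATPase Chd4 fell from 861 to 609 CPM on average (log2 fold change -0.57 ± 0.12) and Cdk2ap1 by 0.79 ± 0.14, whereas Mta3 rose by 0.63 ± 0.13. Among 17 Sin3 complex genes 2 were called in each direction, with Phf12 lower by log2 -0.82 ± 0.12 and Sin3b higher by 0.89 ± 0.16. Among the partners of Ncor1 and Kdm1a, the X-linked genes Tbl1x (0.92 ± 0.16) and Zmym3 (0.70 ± 0.12) rose, and Cops2 fell by 0.45 ± 0.11. Of 10 histone acetyltransferases Kat8 and Kat2a fell, and none of the 6 other sirtuins was called.

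With overexpression, Mta3 fell by 1.07 ± 0.14 and Phf12 rose by 0.67 ± 0.12 on the log2 scale. The shares called were 25% of H3K4 complex partners, 40% of NuRD, 29.4% of Sin3 and 30% of acetyltransferase genes. They were 12.5% of the partners of Ncor1, 30% of those of Kdm1a and 33.3% of the other sirtuins. Of the 16 H3K4 complex partners 3 were called higher, among them Setd7, an H3K4 monomethyltransferase (1.53 ± 0.31), and Ogt (0.53 ± 0.14), and Tasp1, the protease that cleaves Kmt2a, fell by 0.98 ± 0.21. Chd3, a NuRD remodelling ATPase, rose by 1.08 ± 0.25. Zmym3 rose by 1.05 ± 0.12. Hat1, which acetylates new histone H4, fell from 400 to 198 CPM on average (log2 fold change -1.02 ± 0.15), Kat7 and Crebbp rose, Sirt7 rose by 0.84 ± 0.19 and Sirt5 fell by 1.18 ± 0.30. The adjusted p-values of the partner genes named ran from 7.4e-06 (Zmym3 with overexpression) to 0.047, with edgeR's quasi-likelihood test.

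By day 6 most members had moved in every line, as had most genes. Against undifferentiated cells of the same line, 27 members were called in shCtrl (7 higher, 20 lower), 24 in shYy1 (8 and 16), 24 in oeCtrl (9 and 15) and 24 in oeYy1 (8 and 16). The shares of all genes called were 74.1% in shCtrl (37.5% higher, 36.6% lower), 75.4% in shYy1 (37.9% and 37.4%), 73% in oeCtrl (37.1% and 35.9%) and 72.7% in oeYy1 (35.7% and 36.9%). Day 6 libraries form a separate set of the deposit, so stage and set cannot be told apart. All 10 pluripotency markers fell in all 4 lines, and trophoblast markers summed to 3340 to 6488 CPM on day 6 against at most 220 CPM before. In the same lines fibroblast markers summed to 826 to 1050 CPM on day 6 against at most 85.4 CPM before. Endoderm markers summed to 1350 to 2374 CPM against at most 443 CPM before. At least 1 trophoblast and 1 endoderm marker was called lower in each line. The part of these markers in the members' changes was not tested.

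In all 4 lines 13 members fell (41.9% of them, beside 19.4% of all genes) and 3 rose (9.68%, beside 21.6%). Of the core of the methyltransferase complexes Ash2l, Wdr5, Rbbp5 and Dpy30 fell in every line. Wdr5 was at 330 to 524 CPM in the 8 undifferentiated libraries and 111 to 154 CPM in the 8 day 6 libraries, with log2 fold changes from -1.91 (shYy1) to -1.46 (shCtrl). Rbbp5 was at 149 to 204 CPM before and 49.5 to 59.1 CPM on day 6 (log2 fold changes from -1.92 to -1.55). Ash2l was at 335 to 653 CPM before and 149 to 233 CPM on day 6 (from -1.50 to -1.15), and Dpy30 at 83.7 to 123 CPM before and 38.8 to 68.6 CPM on day 6 (from -1.35 to -1.03). None of the 4 genes had overlapping stages in these lines, and their falls held under every alternative.

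The catalytic subunits did not fall together. Kmt2c was at 55.3 to 151 CPM before and 24.1 to 33.5 CPM on day 6, with log2 fold changes from -2.20 (oeYy1) to -1.42 (oeCtrl). Kmt2b, needed for bivalent promoters in mouse ES cells, fell by 0.31 to 0.69 on the log2 scale. Kmt2d, at 149 to 205 CPM in 7 of the 8 undifferentiated libraries and 111 CPM in oeCtrl replicate 1, was not called in any line. Kmt2a, Setd1a and Setd1b, and outside this group Cxxc1 and Men1, were called in opposite directions between lines. Setd1b rose in oeCtrl (log2 fold change 1.44 ± 0.13) and shYy1 (0.82 ± 0.12), fell in shCtrl (-1.13 ± 0.12) and was not called in oeYy1 (-0.01 ± 0.12). After those changes the 8 day 6 libraries lay between 47.4 and 78.8 CPM, a narrower range than the 21.1 to 101 CPM of the same lines before.

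Among demethylases Kdm5b, the main Kdm5 enzyme of ES cells, was at 453 to 554 CPM before and 196 to 258 CPM on day 6 and fell in each line (log2 fold changes from -1.33 to -1.02). Kdm1b fell in each line too (from -1.75 to -0.53), as did Kdm5c (from -0.71 to -0.23). Kdm5a was the demethylase that rose in each line, by 0.21 to 0.45 on the log2 scale, though its call in oeCtrl was lost without oeCtrl replicate 1 (adjusted p = 0.26) or day 6 oeCtrl replicate 2 (0.14). Kdm1a (LSD1), which demethylates mono- and dimethylated H3K4, had log2 fold changes from -0.17 to -0.03, and its calls in shCtrl and shYy1 were lost under several alternatives.

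Deacetylases of the same class went in different directions. Of class I, Hdac1 and Hdac2 fell in every line, Hdac1 by 0.23 to 0.77 and Hdac2 by 0.20 to 0.55 on the log2 scale, and Hdac3, the catalytic partner of Ncor1, rose by 0.19 to 0.52. Several of the smaller calls of these genes were lost in single alternatives, namely Hdac1 in shYy1, Hdac2 in shCtrl and Hdac3 in shCtrl and shYy1. Hdac7, known from endothelial and muscle cells, was at 4.47 to 50.1 CPM before and 97.0 to 112 CPM on day 6. Its log2 fold changes were 3.06 ± 0.40 in shCtrl, 2.37 ± 0.38 in shYy1, 0.98 ± 0.35 in oeCtrl and 1.04 ± 0.35 in oeYy1. The calls of both ES lines were lost in each leave-one-out fit, with adjusted p from 0.068 to 0.11. Beside this rise muscle and endothelial markers summed to 477 to 2487 CPM on day 6 against 76.2 to 218 CPM before in the same lines, and their part in it was not tested.

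Sirt1 fell in each line: it was at 87.0 to 175 CPM before and 22.2 to 39.0 CPM on day 6. The log2 fold changes were -2.53 ± 0.09 in shCtrl, -1.98 ± 0.09 in shYy1, -1.70 ± 0.09 in oeCtrl and -1.89 ± 0.09 in oeYy1, all held under every alternative. Ncor1 fell in each line as well, by 0.90 to 1.59 on the log2 scale. Hdac6 was at 179 and 204 CPM in oeCtrl, 174 and 179 CPM in oeYy1 and 242 and 245 CPM in shYy1, and fell to between 70.7 and 87.4 CPM in these 3 lines. In shCtrl it was at 116 and 89.6 CPM before and 112 and 118 CPM on day 6 and was not called (log2 fold change 0.03 ± 0.08). Hdac11 rose in shCtrl, from 3.21 and 3.12 CPM to 14.7 and 16.0 CPM (log2 fold change 2.13 ± 0.20, adjusted p = 3.9e-09). In the other 3 lines the log2 fold change was 0.10 to 0.24 and not called.

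**Figure D4:**
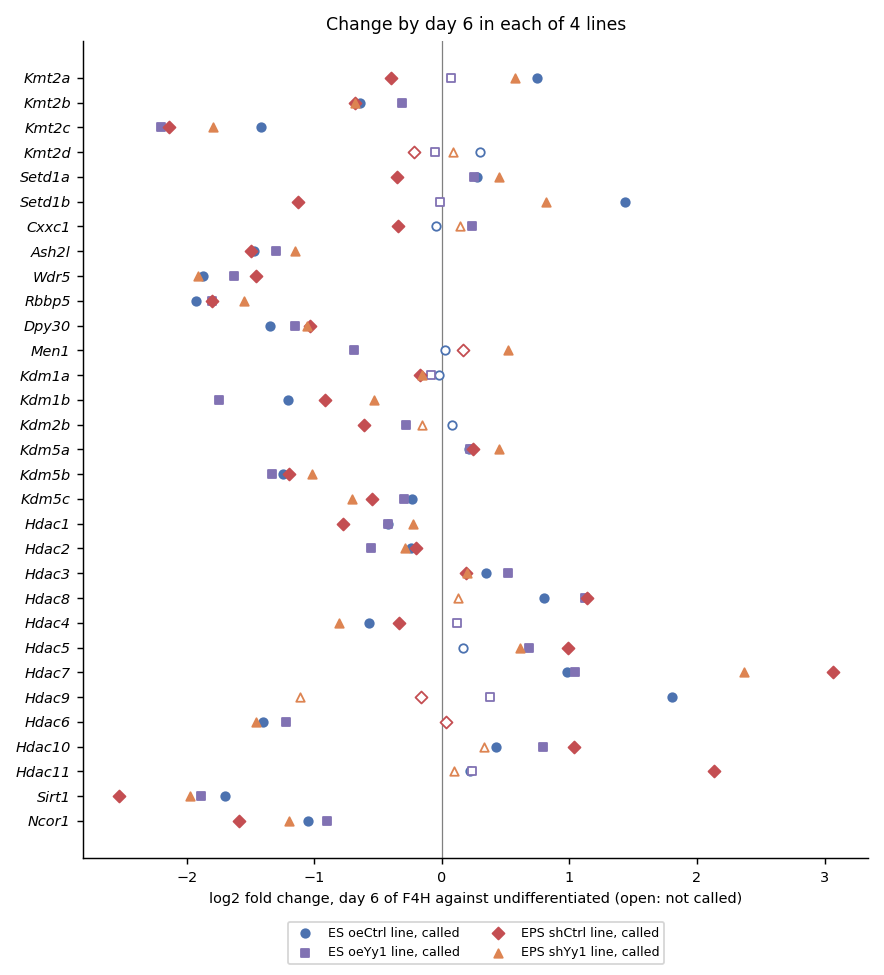
Log2 fold change of each member on day 6 of F4H against undifferentiated cells, for 4 lines (symbols), filled where the adjusted p is under 0.05 and open otherwise. Ash2l, Wdr5, Rbbp5, Dpy30, Kmt2c, Kdm5b, Sirt1 and Ncor1 lie left of 0 in all lines, and Setd1b runs from -1.13 (shCtrl) to 1.44 (oeCtrl).

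Within day 6 the Yy1 hairpin line differed from its control in 19 members (9 higher, 10 lower), 61.3% of the members and 61.3% of all genes (30.9% higher, 30.4% lower). Muscle and endothelial markers summed to 2190 to 2215 CPM in shYy1 and 477 to 479 CPM in shCtrl (4 of 9 called higher, 2 lower), and trophoblast markers to 6407 to 6488 CPM and 3340 to 3345 CPM (6 of 9 higher, 3 lower). Endoderm markers summed to 2161 to 2182 CPM and 1350 to 1356 CPM (5 of 12 higher, 6 lower). Their part in the members' differences was not tested. The scaling bears on the direction: library totals in place of normalization factors shift all genes by -0.13 on the log2 scale. With those totals 6 members were called higher and 16 lower, beside 62.6% of all genes. Kmt2a, Kmt2c, Setd1b, Ncor1, Kdm1b and Kdm5c were higher in shYy1 with both scalings. Kmt2d, Setd1a and Hdac1 were called higher with the normalization factors but not with the totals (adjusted p = 0.61, 0.14 and 0.10), and Kmt2d also not without day 6 shYy1 replicate 1 (0.081). Kmt2a was at 137 and 134 CPM in shCtrl and 215 and 210 CPM in shYy1 (log2 fold change 0.78 ± 0.05, adjusted p = 8.9e-23). Setd1b was at 48.6 and 47.4 CPM in shCtrl and 69.4 and 77.7 CPM in shYy1 (log2 fold change 0.75 ± 0.07, adjusted p = 4.9e-15), where it had been lower than its control before differentiation.

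All 3 class IIb and IV deacetylases were lower in day 6 shYy1 cells. Hdac11 was at 14.7 and 16.0 CPM in shCtrl and 3.87 and 4.87 CPM in shYy1 (log2 fold change -1.69 ± 0.15, adjusted p = 1.2e-14). Hdac10, a polyamine deacetylase, was at 15.9 ± 2.8 CPM in shCtrl (SD, n = 2) and 8.20 and 9.81 CPM in shYy1 (log2 fold change -0.70 ± 0.13, adjusted p = 5.7e-06). Hdac6 was at 112 and 118 CPM in shCtrl and 84.0 and 87.4 CPM in shYy1 (log2 fold change -0.29 ± 0.05), the reverse of the undifferentiated comparison. Hdac4 (-0.44 ± 0.08), Hdac5 (-0.35 ± 0.05), Dpy30 (-0.59 ± 0.07), Kdm1a (-0.25 ± 0.04) and Sirt1 (-0.34 ± 0.09) were lower as well. These calls held under every alternative, while those of Cxxc1 and Wdr5 were lost without any 1 of the 4 libraries (adjusted p from 0.050 to 0.25).

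Kdm5c stayed higher on day 6, at 229 and 221 CPM in shYy1 against 160 and 161 CPM in shCtrl (log2 fold change 0.62 ± 0.04, adjusted p = 1.5e-18). The X-linked median was 0.27 over 548 genes, and Kdm5c lay above 69% of them. Xist was at 464 and 476 CPM in these 2 shYy1 libraries and under 1 CPM in the other 6 day 6 libraries, and Y-linked genes summed to 169 and 176 CPM in shYy1 against 16.4 and 17.4 CPM in shCtrl. Yy1 itself was not called between these groups, and an effect of the hairpin and other differences between the lines cannot be told apart.

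The Yy1 construct line on day 6 was higher than its control in 16 members and lower in 1 (Kdm1b), beside 41.9% of all genes called, 20.3% higher and 21.6% lower. Trophoblast markers summed to 3377 to 3526 CPM in oeYy1 and 5625 to 5674 CPM in oeCtrl (4 of 9 called higher, 5 lower), and muscle and endothelial markers to 1150 to 1175 CPM and 2367 to 2487 CPM (none of 9 higher, 5 lower). Of 10 pluripotency markers 2 were higher and 6 lower. The part of these markers in the members' differences was not tested. All 6 methyltransferases were called higher, by small amounts: log2 fold changes ran from 0.12 (Kmt2d) to 0.31 (Kmt2c). Kmt2a was at 163 and 167 CPM in oeCtrl and 203 and 210 CPM in oeYy1, and Kmt2b at 180 and 169 CPM against 212 and 218 CPM. The calls of Kmt2a, Kmt2b and Kmt2c held under every alternative, whereas Kmt2d, Setd1a and Setd1b lost theirs without day 6 oeYy1 replicate 2 (adjusted p = 0.20, 0.10 and 0.47), and Kmt2d (0.25) and Setd1b (0.24) also without day 6 oeCtrl replicate 2. Hdac5 was at 71.2 and 69.2 CPM in oeCtrl and 109 and 110 CPM in oeYy1 (log2 fold change 0.60 ± 0.06, adjusted p = 1.1e-13). Hdac11 was at 5.27 and 5.60 CPM in oeCtrl and 14.6 and 11.1 CPM in oeYy1 (log2 fold change 1.20 ± 0.16, adjusted p = 3.9e-09). Hdac4 (0.43 ± 0.08), Kdm5a (0.35 ± 0.05) and Kdm2b (0.33 ± 0.05) rose under every alternative too.

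The hairpin and the construct on day 6 share no library, so their calls can be set side by side. Hdac4, Hdac5, Hdac11, Dpy30 and Kdm1a were lower with the hairpin and higher with the construct (16.1% of members, 12.6% of all genes), and Kdm1b was the reverse (3.23%, beside 14.6%). Kmt2a, Kmt2c, Kmt2d, Setd1a, Setd1b and Ncor1 were higher with both (19.4%, beside 2.85%), with the limits given above for Kmt2d, Setd1a and Setd1b. Some construct calls rest on 1 library: that of Ncor1 was lost without day 6 oeYy1 replicate 2 (adjusted p = 0.12), those of Kdm1a (0.16) and Kdm1b (0.15) without day 6 oeYy1 replicate 1, that of Kdm1b also without day 6 oeCtrl replicate 1 (0.19) and that of Dpy30 without day 6 oeCtrl replicate 2 (0.081).

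**Figure D5:**
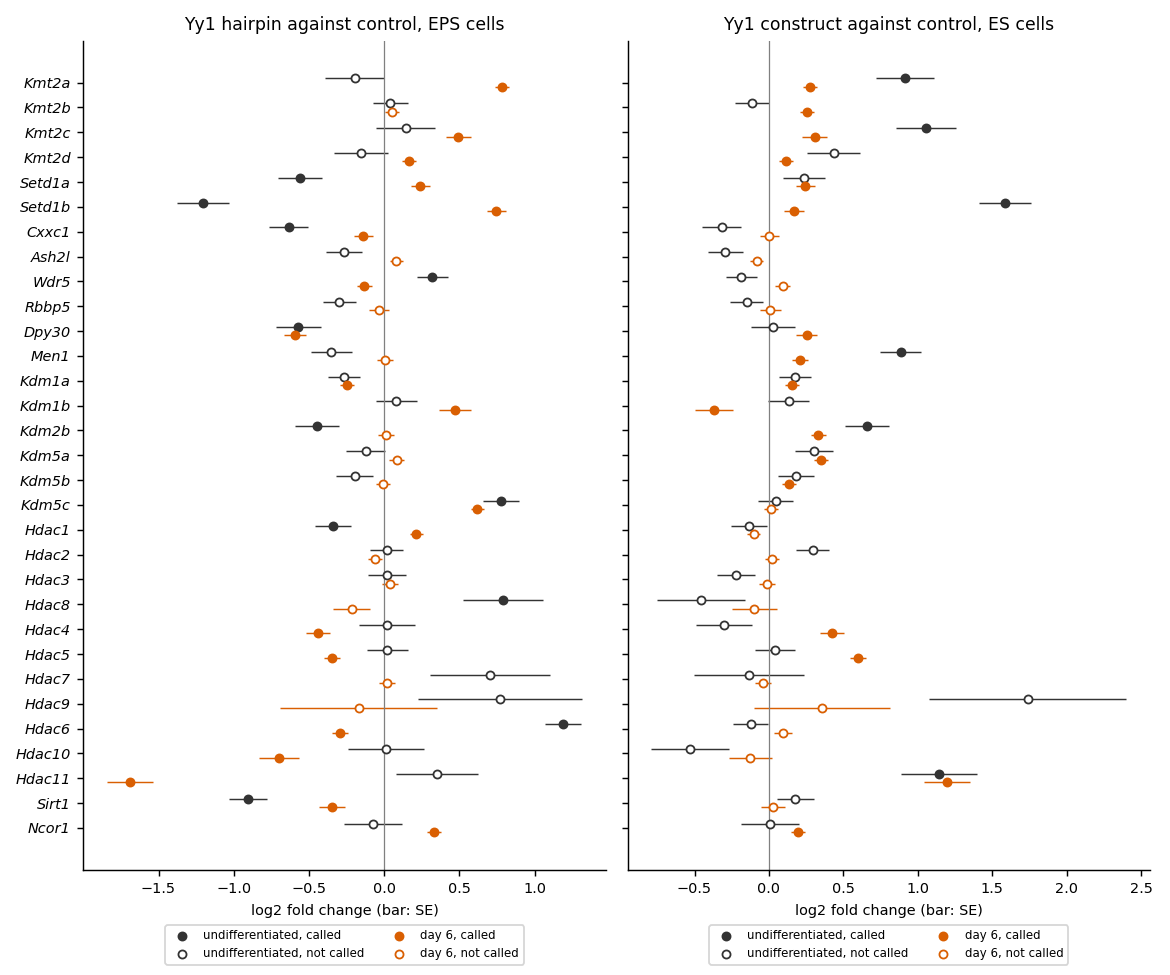
Log2 fold change with SE for the Yy1 hairpin in EPS cells (left) and the Yy1 construct in ES cells (right), undifferentiated (black) and on day 6 (orange), filled where the adjusted p is under 0.05. Setd1b lies at -1.20 and 0.75 with the hairpin and at 1.58 and 0.17 with the construct.

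Between the day 6 control lines, 10 members were higher and 12 lower in shCtrl than in oeCtrl, beside 64.1% of all genes (31.6% higher, 32.4% lower). With library totals alone 13 were higher and 10 lower, beside 66.2% of all genes. Muscle and endothelial markers summed to 477 to 479 CPM in shCtrl and 2367 to 2487 CPM in oeCtrl (1 of 9 called higher, 6 lower), and their part was not tested. Hdac11 was at 14.7 and 16.0 CPM in shCtrl and 5.27 and 5.60 CPM in oeCtrl (log2 fold change 1.35 ± 0.15), Hdac6 at 112 and 118 CPM against 73.4 and 70.7 CPM (0.53 ± 0.05) and Hdac8 at 14.4 and 13.9 CPM against 7.43 and 8.43 CPM (0.70 ± 0.13). Ash2l was lower in shCtrl, at 158 and 156 CPM against 224 and 233 CPM (-0.69 ± 0.04), as it was before differentiation. Setd1b was lower too (-0.57 ± 0.07), where it had been higher before (1.98 ± 0.18). The calls of these 5 genes held under every alternative, while 1 of those lost, Hdac10 (0.54 ± 0.13), had an adjusted p of 0.057 without day 6 shCtrl replicate 2.

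The difference between stages was tested itself, as the day 6 log2 fold change minus the undifferentiated one. For the hairpin it was called in 17 members, 10 higher and 7 lower, beside 41.5% of all genes (21.4% higher, 20.1% lower). With library totals alone it was called in 6 higher and 9 lower, beside 41.6% of all genes. For the construct it was called in 10 members, 3 higher and 7 lower, beside 37.6% of all genes (17.7% higher, 19.9% lower). With library totals alone it was called in 6 each way, beside 37.5% of all genes. Setd1b differed between stages in both, by 1.95 ± 0.17 for the hairpin and -1.45 ± 0.18 for the construct, and both calls held under every alternative. So did those of Hdac6 (-1.49 ± 0.12) and Sirt1 (0.55 ± 0.13) for the hairpin and of Kmt2c (-0.78 ± 0.20) and Men1 (-0.71 ± 0.12) for the construct.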

How the data were processed

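Per the labels, RNA was extracted with TRIzol. The authors deposited 1 table of raw read counts per gene for each of 22 libraries. Per the submitters' processing notes the series used CASAVA, Bowtie2 2.3.2, mm10 and GRCm38.p6, with roles not stated. The counting tool and its strand setting are not given in the sources used here, so reads of overlapping antisense genes cannot be told apart. Summary lines stayed out of totals: they hold 5.61 to 8.62% of reads outside genes, 3.70 to 5.32% ambiguous and 5.45 to 6.66% with more than 1 alignment. The other 41 samples were not analysed here. The 31 members and all lists were chosen with earlier results of these data known. The named partner genes are, per list, at most 3 called genes of smallest p in the depletion and overexpression comparisons, of which some are not reported here.

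Version 4.0.16 of edgeR (R 4.3.3) was used on the counts (TMM, filterByExpr, robust quasi-likelihood F-test, checked on simulated data) in 3 models: 14 undifferentiated, 8 day 6 and 16 hairpin and construct libraries, giving 13 comparisons. The threshold was 0.05 after Benjamini-Hochberg adjustment over all genes tested. SE is the absolute log2 fold change divided by the square root of F. Printed CPM use library totals, the fold changes TMM factors. Floors (3 counts) cover counting error only. The labels name no pairing, and replicate numbers were not used to pair samples in the reported fits. Alternatives were DESeq2 1.42.0, other scalings, no filter, a replicate block, fewer libraries and no sex-chromosome genes.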

Additional observations from a re-analysis of the deposited data

Results flagged for a closer look

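The effect of the Yy1 hairpin differed between day 6 and undifferentiated cells in 17 members (41.5% of all genes), and that of the Yy1 construct in 10 (37.6%), by edgeR's quasi-likelihood test of the interaction. Values are the day 6 log2 fold change minus the undifferentiated one.

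For the hairpin the difference was positive for Setd1b (1.95), Kmt2a (0.97), Setd1a (0.80), Hdac1 (0.55), Sirt1 (0.55), Cxxc1 (0.49), Kdm2b (0.45), Ncor1 (0.39), Men1 (0.35) and Ash2l (0.34). Setd1b, Setd1a and Hdac1 were called lower before and higher on day 6. The day 6 calls of Setd1a and Hdac1 were made with normalization factors only, and their undifferentiated calls were lost in leave-one-out fits given above. Sirt1 was lower at both stages but less so on day 6. The difference was negative for Hdac11 (-2.04), Hdac6 (-1.49), Hdac8 (-1.02), Hdac10 (-0.71), Hdac4 (-0.47), Wdr5 (-0.46) and Hdac5 (-0.37). Hdac6 and Wdr5 were called higher before and lower on day 6. For Wdr5 the calls within each stage were lost when any single library compared was left out, as given above. The stage difference itself lost its call under at least 1 alternative in Cxxc1, Ash2l, Men1, Kdm2b, Hdac4, Hdac5, Hdac10 and Ncor1. In the other 9 members it held under all. The X-linked median of this difference was -0.48, beside Hdac6 and Hdac8.

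For the construct the difference was negative for Setd1b (-1.45), Kmt2c (-0.78), Men1 (-0.71), Kmt2a (-0.67), Kdm1b (-0.54), Kdm2b (-0.36) and Hdac2 (-0.31). Setd1b, Kmt2c, Men1, Kmt2a and Kdm2b were called higher at both stages. It was positive for Hdac4 (0.69), Hdac5 (0.52) and Kmt2b (0.34). The calls of Kmt2a, Kmt2b, Kdm1b, Kdm2b and Hdac2 were lost under at least 1 alternative, and the other 5 held under all. Yy1's own construct effect was smaller on day 6 by 1.60 on the log2 scale and its hairpin effect was no longer called.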

How the results depend on the processing

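Of 218 calls over 13 comparisons, 150 held under every alternative and 68 were lost under at least 1. A further 53 uncalled values passed under at least 1 alternative, and 176 values that were not called in the fit reported changed sign somewhere, which is not counted as a reversal unless called. Library totals alone, chosen after seeing the data, gave 3 reversals: on day 6 Men1 (-0.13) and Kdm2b (-0.12) were called lower with the hairpin, and Kmt2b (0.12) was called higher in shCtrl than in oeCtrl. That scaling moved the undifferentiated construct split from 6 higher and 0 lower to 7 and 1, the hairpin stage difference from 10 and 7 to 6 and 9, and the construct stage difference from 3 and 7 to 6 and 6. RLE factors gave 5 higher and 3 lower for EPS against ES, where the reported split was 2 and 4.

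The number of members called ranged from 4 to 7 leaving out 1 library for EPS against ES (6 reported), from 6 to 12 for shCtrl against oeCtrl (11), from 5 to 12 for depletion (11), from 6 to 7 for overexpression (6) and from 6 to 10 for the construct stage difference (10). With only the libraries compared, 7 were called for depletion, beside 24.1% of all genes. For overexpression 17 were (11 higher, 6 lower), beside 57.4% of all genes. Leaving out sex-chromosome genes, 7 were called for depletion, beside 26.8% of all genes. The replicate block gave 10 for EPS against ES, 15 for depletion and 13 for overexpression. The shares of all genes with that block were 38.9%, 37.5% and 39.9%. Same-numbered ES and EPS libraries correlated at 0.090, 0.13 and 0.31 in their deviations, and pairs of the other comparisons at -0.025 to 0.042. The value of 0.31 is that of the third replicates. These also had the highest Xist of their groups (81.4 CPM in ES, 68.2 CPM in EPS). Whether same-numbered ES and EPS libraries share more than a number cannot be told from the labels. The cause of the moves in the number of members called was not tested. Depth limits Hdac9, which had as few as 0.187 CPM.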
